A study of Rattus norvegicus with 20 samples.

Results

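The glycolysis enzymes described here are the products of 10 genes, namely Hk1, Hk2, Gpi, Pfkp, Pfkfb3, Aldoa, Gapdh, Eno1, Pkm and Ldha. They were taken by gene symbol from a table of 34681 rows, of which 16661 carried a symbol, and each matched 1 row. All 10 were among the 15954 rows that passed the filter on low values, and the fewest reads that any of them had in a library was 89. The study looked at kidney injury in a rat model of trauma. Messenger RNA of frozen kidneys was sequenced in 3 libraries labelled RM-HS, 6 labelled RM, 5 labelled HS and 6 labelled Sham. RM-HS carries the names of both injuries, and the labels spell out neither RM nor HS. They give no strain, sex, age, time after injury or treatment, and do not state separate rats for the libraries of a group, so a p-value speaks for the scatter among these libraries, part of which may be technical. A total of 19, with 5 RM libraries, stands in the design text, but 20 libraries with 6 RM carry labels, and all 20 were used.

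Glycolysis breaks glucose down to pyruvate in the cytosol and yields ATP without oxygen, and lactate dehydrogenase then turns pyruvate into lactate and restores the NAD+ that the pathway needs. Hexokinases trap glucose in the cell, phosphofructokinase is the main point of control, and pyruvate kinase makes the last ATP. In the kidney the proximal tubule burns mainly fatty acids and makes glucose, while the distal segments use glucose far more. Many of the genes are known targets of the hypoxia-inducible factors, which bind DNA at a short core sequence.

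Levels are DESeq2-normalized read counts, called normalized reads, and changes are differences of group means of log2(value + 1) with their SE. The libraries held 45047179 to 109940948 reads in the table, of which 42.2% to 54.7% lay on 14 mitochondrial rows. The controls differed among themselves in segment markers. Slc5a2, the glucose transporter that defines the early proximal tubule, had at least 9389 normalized reads in every RM-HS, RM and HS library. Sham 1 held 6791 and Sham 6 held 7863 of them, whereas Sham 2 to Sham 5 held 43.1 to 395.6. The library names hold numbers, which are lowest for Sham 2 to Sham 5, with no injury library among them. What these numbers stand for is not stated. Member changes against Sham are therefore given with all 6 controls and, where that ends or makes a call, again with Sham 1 and Sham 6 as the only controls, a choice that rests on these values. In bulk kidney, fewer cells of a type and less RNA per cell cannot be told apart.

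In RM kidneys 7 of the 10 genes were higher than in Sham, 1 was lower and 2 did not pass (limma adjusted p under 0.05). The higher genes were Hk2, Gpi, Pfkfb3, Aldoa, Gapdh, Eno1 and Ldha, and the lower one was Hk1. Over all tested rows 53% passed in that comparison, 26.2% higher and 26.8% lower, so 8 of 10 members stood beside a wide background. In RM-HS kidneys 7 genes were higher, again Hk2, Gpi, Pfkfb3, Aldoa, Gapdh, Eno1 and Ldha, none was lower, with none at an unadjusted p under 0.05 and none by edgeR or DESeq2, and 42.3% of all rows passed, 21.3% higher and 21% lower. In HS kidneys 4 genes were higher (Pfkfb3, Gapdh, Eno1 and Ldha) and 2 were lower (Hk1 and Gpi), against 46.4% of all rows, 23.3% higher and 23.2% lower, a share not far from that of the members. In RM-HS 7 members lay wholly above Sham and none wholly below, beside 16.5% and 16.1% of all rows (32.5% together). In RM 5 lay wholly above and none below, beside 13.3% and 12.4% (25.7%), and in HS 1 lay above and 1 below, beside 13.7% and 12.2% (25.9%). The median change of the 10 genes was 0.66 in RM-HS, 0.58 in RM and -0.03 in HS, beside -0.03, -0.04 and -0.03 over all tested rows. The 3 comparisons share their controls. With Sham 1 and Sham 6 as the only controls the medians were 0.78 in RM-HS, 0.62 in RM and 0.06 in HS, with 7, 7 and 3 members passing and 27.2%, 32.9% and 25.7% of all rows.

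**Figure D1:**
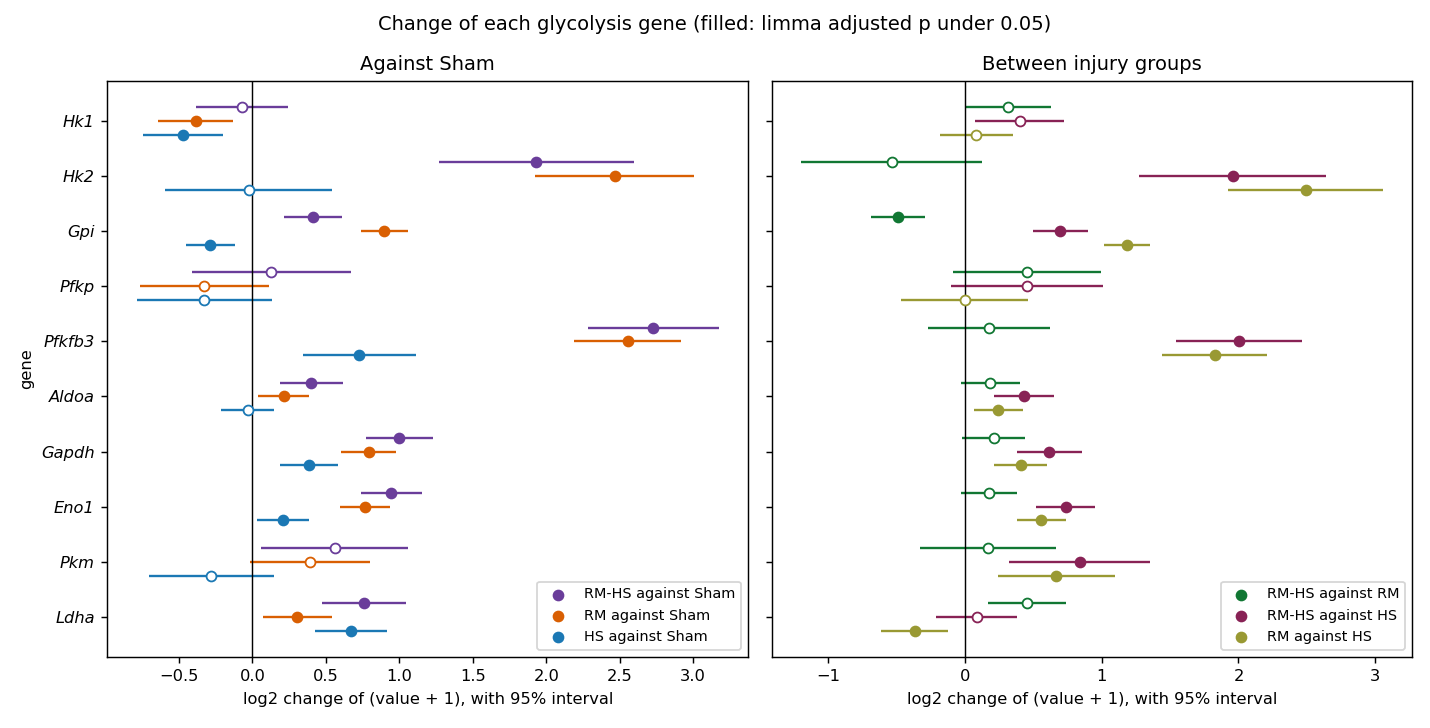
Change of each of the 10 glycolysis genes, as the log2 change of (value + 1) on the horizontal axis with its 95% interval, against Sham on the left (RM-HS, RM and HS) and between the injury groups on the right, with filled points for a limma adjusted p under 0.05. Hk2 and Pfkfb3 lie beyond 1.9 in RM-HS and RM against Sham, Hk2 in HS against Sham lies at -0.02, and the other 8 genes lie between -0.49 and 1.19 in every comparison.

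The promoters of 4 members are shown because these genes follow 4 different patterns over the injuries. Hk2 was higher in RM-HS and RM and did not pass in HS, Pfkfb3 was higher in every injury group, Gpi was higher in RM-HS and RM and lower in HS, and Ldha was lower in RM than in HS. Sequences are those of RefSeq on the GRCr8 build, from 250 bases before to 50 bases after the annotated start, read 5′ to 3′ on the strand of the gene, and capitals mark the hypoxia core ACGTG or GCGTG on either strand (CACGT and CACGC on the printed strand). The windows are chr4:116841226-116841525 on the minus strand for Hk2, chr17:71944683-71944982 on the plus strand for Pfkfb3, chr1:95993212-95993511 on the minus strand for Gpi and chr1:106507842-106508141 on the plus strand for Ldha.
Hk2: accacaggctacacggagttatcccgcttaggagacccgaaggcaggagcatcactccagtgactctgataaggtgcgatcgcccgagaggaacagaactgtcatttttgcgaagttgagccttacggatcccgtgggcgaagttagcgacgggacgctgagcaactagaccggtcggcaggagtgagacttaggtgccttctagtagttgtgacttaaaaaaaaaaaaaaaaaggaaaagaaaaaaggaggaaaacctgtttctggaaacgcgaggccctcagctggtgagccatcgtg
Pfkfb3: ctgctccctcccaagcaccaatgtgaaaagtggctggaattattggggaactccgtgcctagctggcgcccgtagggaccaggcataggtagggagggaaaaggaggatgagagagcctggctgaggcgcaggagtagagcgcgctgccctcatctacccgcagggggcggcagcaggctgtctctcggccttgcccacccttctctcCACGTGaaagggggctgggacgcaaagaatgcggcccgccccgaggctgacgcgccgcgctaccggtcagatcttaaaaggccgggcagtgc
Gpi: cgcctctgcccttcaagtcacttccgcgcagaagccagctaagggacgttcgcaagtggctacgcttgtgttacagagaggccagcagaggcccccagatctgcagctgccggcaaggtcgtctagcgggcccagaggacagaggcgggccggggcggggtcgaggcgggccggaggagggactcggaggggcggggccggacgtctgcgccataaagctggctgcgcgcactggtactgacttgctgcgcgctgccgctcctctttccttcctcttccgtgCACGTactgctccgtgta
Ldha: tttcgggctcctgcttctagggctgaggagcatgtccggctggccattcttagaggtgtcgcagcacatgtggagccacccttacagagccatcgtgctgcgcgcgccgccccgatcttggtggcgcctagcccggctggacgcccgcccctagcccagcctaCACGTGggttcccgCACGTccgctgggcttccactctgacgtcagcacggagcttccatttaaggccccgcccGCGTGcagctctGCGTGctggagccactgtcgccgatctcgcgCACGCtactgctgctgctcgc

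The Hk2 window held no hypoxia core. The Pfkfb3 window held the palindrome CACGTG, which begins 42 bases before the start and contains ACGTG on both strands. The Gpi window held 1 core, 33 bases after the start. The Ldha window held 6 cores, 3 of ACGTG and 3 of GCGTG, of which a CACGTG at 87 bases before the start accounts for 2. All 10 members matched the promoter table, with 14 promoters among them, and 9 of these promoters, of 8 members, held at least 1 core, with none in the windows of Hk2 and Pkm. Among all 33469 promoters of that length 41.6% held ACGTG or GCGTG, 6.42% held CACGTG and 12.1% held TGACNNNGC, the core of the antioxidant response element, each searched on both strands. Among the members CACGTG was found for Pfkfb3 and Ldha, and TGACNNNGC in 2 promoters of Aldoa. A match describes the letters of a window and does not show a factor there.

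Hexokinase 2, the inducible isozyme found mostly in muscle and fat, separated RM from HS by the most of any member, a difference of 2.49 on the log2 scale. Hk2 (GSRG0022961, rn6 chromosome 4, 113560880 to 113609898) had 779, 740 and 1153 normalized reads in the RM-HS libraries. In RM libraries it had 847 to 2011 with a median of 1362. It had 188, 163, 457, 282 and 142 in the HS libraries, and 175 to 321 with a median of 207 in Sham libraries. Every RM-HS and RM library lay above every HS and Sham library, and HS and Sham overlapped. The change was 1.93 ± 0.32 in RM-HS against Sham, a 3.82-fold difference (limma adjusted p = 8.5e-05). In RM against Sham it was 2.47 ± 0.26, a 5.53-fold difference (limma adjusted p = 2.5e-07). In HS against Sham it was -0.02 ± 0.27, with a 95% interval of -0.59 to 0.54 (limma adjusted p = 0.95).

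Hexokinase 1, the constitutive isozyme, was lower in RM and HS. Hk1 (GSRG0018509, rn6 chromosome 20, 31911460 to 31979780) had 4214, 4293 and 3438 normalized reads in the RM-HS libraries. It had 2317 to 3883 with a median of 3205 in RM libraries, 2840, 2685, 3861, 3200 and 2571 in the HS libraries, and 3248 to 4811 with a median of 4192 in Sham libraries. Each injury group overlapped Sham, and the lowest control was Sham 6. Hk1 fell by 0.39 ± 0.12 in RM (limma adjusted p = 0.013) and by 0.47 ± 0.13 in HS (limma adjusted p = 0.0054), while in RM-HS the change was -0.07 ± 0.15 (limma adjusted p = 0.74). Neither fall passed with Sham 1 and Sham 6 as the only controls, at -0.22 in RM (limma adjusted p = 0.36) and -0.31 in HS (limma adjusted p = 0.23). The library names start with R or S, all Sham names with R and 5 of 6 RM names with S, and with that letter as a covariate the RM change of Hk1 was -0.27 (limma adjusted p = 0.26).

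Glucose-6-phosphate isomerase, which turns glucose 6-phosphate into fructose 6-phosphate, was the member with opposite changes in the single injuries. Gpi (GSRG0003250, rn6 chromosome 1, 90063408 to 90091287) had 11742, 14485 and 12137 normalized reads in the RM-HS libraries and 15857 to 19418 with a median of 18148 in RM libraries. In the HS libraries it had 8841, 8188, 7279, 6861 and 8226, and in Sham libraries 9035 to 10240 with a median of 9493. No 2 of the 4 groups overlapped, and the order from high to low was RM, RM-HS, Sham and HS. Gpi rose by 0.41 ± 0.09 in RM-HS (limma adjusted p = 0.0017) and by 0.90 ± 0.08 in RM (limma adjusted p = 2.1e-08), and it fell by 0.29 ± 0.08 in HS (limma adjusted p = 0.0065). With Sham 1 and Sham 6 as the only controls the RM-HS change was 0.32 (limma adjusted p = 0.075), and those in RM and HS still passed. With libraries named R alone the HS change was -0.24 (limma adjusted p = 0.070). Its spread within a group was small, with a coefficient of variation of 11.6% in RM-HS, 8.24% in RM, 10.1% in HS and 5.45% in Sham.

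**Figure D2:**
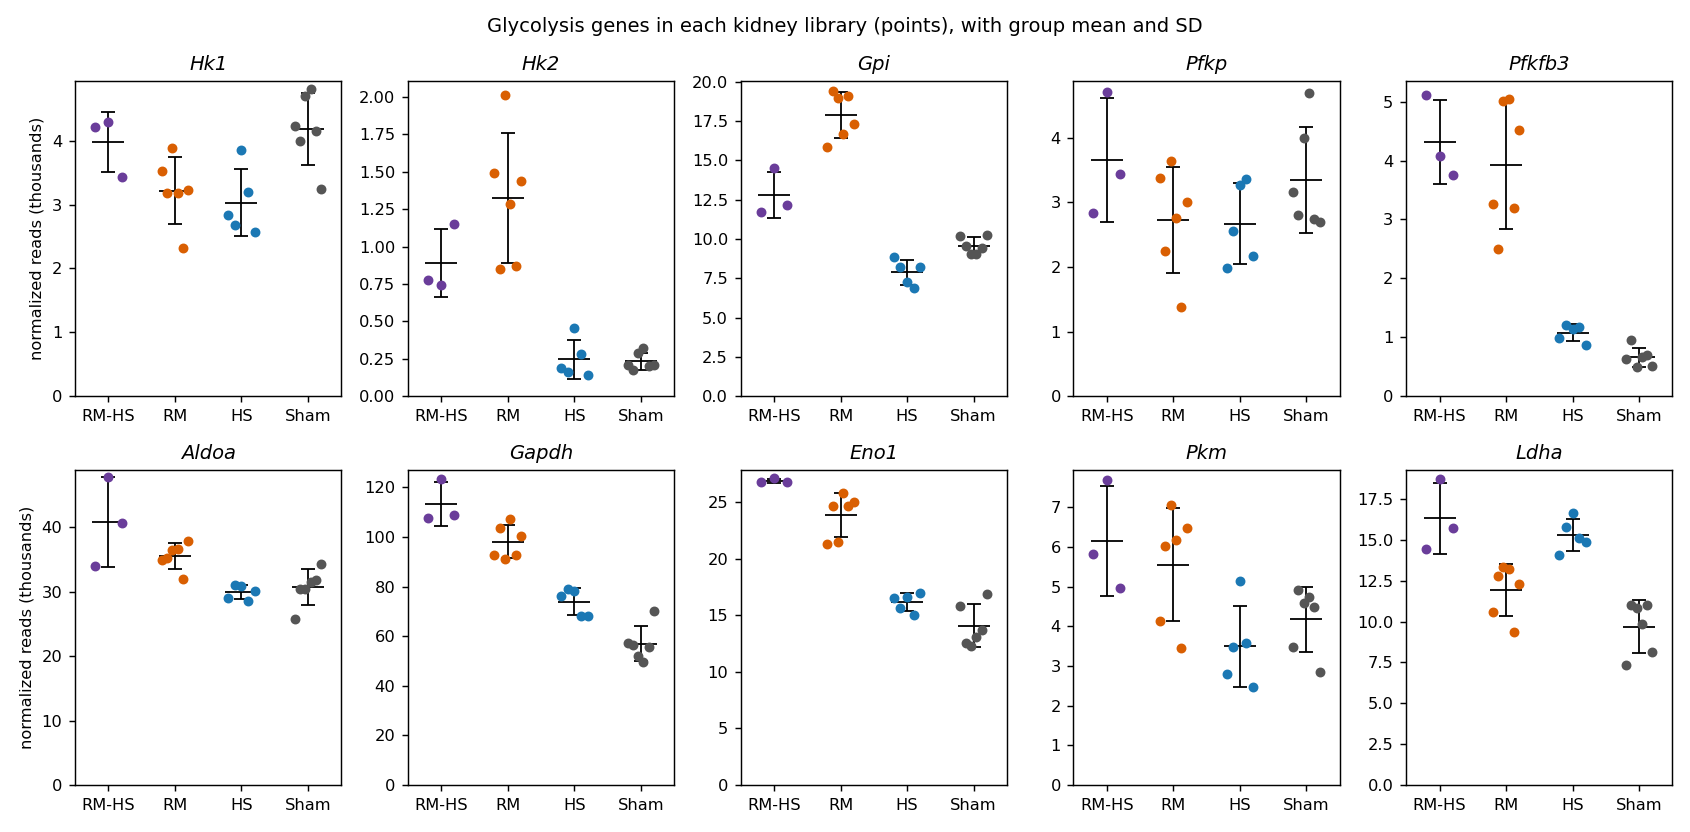
Normalized reads (vertical axes from 0, in units of 1000) of the 10 glycolysis genes in each library, with groups in the order RM-HS, RM, HS and Sham, points for libraries, and lines for the mean and SD of each group. The RM-HS and RM points of Hk2 and Pfkfb3 lie above all HS and Sham points, the 4 groups of Gpi do not overlap, and those of Hk1 and Pfkp do.

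Among the members Pfkp, an isozyme of the enzyme, and a regulator represented the phosphofructokinase step, and only the regulator passed against Sham. Pfkfb3, a 2-kinase that makes fructose 2,6-bisphosphate and thereby switches phosphofructokinase on (GSRG0012910, rn6 chromosome 17, 70684134 to 70711224), had 5118, 4084 and 3747 normalized reads in the RM-HS libraries. In RM libraries it had 2503 to 5044 with a median of 3887. It had 988, 1212, 1139, 1168 and 874 in the HS libraries and 491 to 951 with a median of 652 in Sham libraries. Every RM-HS and RM library lay above every HS library, and among the HS libraries 1 lay below the highest Sham library, Sham 2. Pfkfb3 rose by 2.73 ± 0.21 in RM-HS, 6.63-fold (limma adjusted p = 2.5e-08). It rose by 2.56 ± 0.17 in RM, 5.88-fold (limma adjusted p = 1.0e-09), and by 0.73 ± 0.18 in HS, 1.66-fold (limma adjusted p = 0.0029). All 3 calls held with Sham 1 and Sham 6 as the only controls, at 2.89, 2.72 and 0.89.

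Pfkp, the platelet-type phosphofructokinase (GSRG0013442, rn6 chromosome 17, 68510756 to 68574441), had 2831, 4711 and 3433 normalized reads in the RM-HS libraries. It had 1381 to 3634 with a median of 2877 in RM libraries, 1986, 2563, 3262, 3360 and 2173 in the HS libraries, and 2699 to 4686 with a median of 2982 in Sham libraries. All groups overlapped. The change was 0.13 ± 0.26 in RM-HS (95% interval -0.41 to 0.67), -0.33 ± 0.21 in RM (-0.77 to 0.11) and -0.33 ± 0.22 in HS (-0.79 to 0.14), with limma adjusted p of 0.71, 0.20 and 0.24. It passed in none of the 6 comparisons between groups, and at an unadjusted p under 0.05 in none of them either.

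Aldolase A, which splits fructose 1,6-bisphosphate, changed by little. Aldoa (GSRG0004593, rn6 chromosome 1, 198228387 to 198233588) had 33976, 47864 and 40689 normalized reads in the RM-HS libraries and 32041 to 37969 with a median of 35867 in RM libraries. It had 29100, 31106, 30933, 28559 and 30130 in the HS libraries and 25776 to 34279 with a median of 31014 in Sham libraries. Each injury group overlapped Sham, and RM-HS 1 lay below the highest control, Sham 6. Aldoa rose by 0.40 ± 0.10 in RM-HS (limma adjusted p = 0.0036) and by 0.21 ± 0.08 in RM (limma adjusted p = 0.036), and in HS the change was -0.03 ± 0.09 (limma adjusted p = 0.79). The RM call was lost without any 1 of RM 2, RM 3, RM 4, RM 6, Sham 1, Sham 2 or Sham 3 (limma adjusted p = 0.0516 to 0.086), with Sham 1 and Sham 6 as the only controls (0.26, limma adjusted p = 0.13), and with the name letter as a covariate (0.23, limma adjusted p = 0.17).

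Gapdh, the dehydrogenase that reduces NAD+ in the middle of the pathway and a gene often used as a constant reference, was higher in each injury group. Gapdh (GSRG0030081, rn6 chromosome 4, 157676394 to 157681181) had 107820, 123430 and 108760 normalized reads in the RM-HS libraries and 91264 to 107190 with a median of 96645 in RM libraries. It had 76195, 78949, 78100, 68077 and 68277 in the HS libraries and 49762 to 70106 with a median of 56074 in Sham libraries. The RM-HS libraries lay above all others, the RM libraries lay above every HS and Sham library, and HS overlapped Sham only through Sham 6, the highest control. Gapdh rose 2.00-fold in RM-HS, with a 95% interval of 0.77 to 1.23 on the log2 scale (limma adjusted p = 1.3e-06). It rose by 0.79 ± 0.09 in RM (limma adjusted p = 6.5e-07) and by 0.38 ± 0.09 in HS (limma adjusted p = 0.0024). The HS change was 0.22 with Sham 1 and Sham 6 as the only controls (limma adjusted p = 0.21). Gapdh has many processed pseudogenes in the rat, and how reads that match several places were counted is not given in the sources used here, so its level is uncertain to that extent.

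Enolase 1, which makes phosphoenolpyruvate, was likewise higher in each injury group. Eno1 (GSRG0024497, rn6 chromosome 5, 167288223 to 167299615) had 26777, 27106 and 26754 normalized reads in the RM-HS libraries and 21334 to 25835 with a median of 24663 in RM libraries. It had 16474, 15630, 16618, 15048 and 16981 in the HS libraries and 12290 to 16901 with a median of 13378 in Sham libraries. The RM-HS libraries lay above all others with a coefficient of variation of 0.733%, and HS overlapped Sham. Eno1 rose by 0.95 ± 0.10 in RM-HS (limma adjusted p = 8.0e-07) and by 0.77 ± 0.08 in RM (limma adjusted p = 2.6e-07). In HS it rose by 0.21 ± 0.09 (limma adjusted p = 0.0497). That call was lost without any 1 library other than RM 1, RM 3, HS 4, Sham 1 or Sham 6 (limma adjusted p = 0.0531 to 0.12) and with the name letter as a covariate (limma adjusted p = 0.14), and the change was -0.02 with Sham 1 and Sham 6 as the only controls (limma adjusted p = 0.90).

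Pyruvate kinase M, the isozyme of most tissues, varied widely within groups. Pkm (GSRG0030226, rn6 chromosome 8, 64481166 to 64502956) had 5820, 7690 and 4958 normalized reads in the RM-HS libraries and 3445 to 7065 with a median of 6101 in RM libraries. It had 2804, 3482, 5137, 3581 and 2466 in the HS libraries and 2845 to 4918 with a median of 4542 in Sham libraries. The RM-HS libraries lay above every Sham library, and RM and HS overlapped Sham. The change was 0.56 ± 0.24 in RM-HS (limma adjusted p = 0.065), 0.39 ± 0.20 in RM (limma adjusted p = 0.099) and -0.28 ± 0.21 in HS (limma adjusted p = 0.28). Pkm passed with Sham 1 and Sham 6 as the only controls in RM-HS (0.94, limma adjusted p = 0.031) and in RM (0.77, limma adjusted p = 0.040). Without RM 5, the lowest RM library, it passed in RM with all 6 controls (0.52, limma adjusted p = 0.026). In RM-HS it passed without RM 5 or without HS 3 (limma adjusted p = 0.045 and 0.0462). There it also passed when only the groups compared were fitted (limma adjusted p = 0.043) and by DESeq2 (DESeq2 adjusted p = 0.0467).

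Lactate dehydrogenase A, which favours the step from pyruvate to lactate, was the member with the clearest rise in HS. Ldha (GSRG0037925, rn6 chromosome 1, 102900286 to 102909711) had 14478, 18737 and 15746 normalized reads in the RM-HS libraries and 9391 to 13370 with a median of 12569 in RM libraries. It had 14069, 15779, 16663, 15104 and 14867 in the HS libraries and 7339 to 11048 with a median of 10352 in Sham libraries. Every RM-HS and HS library lay above every RM and Sham library, and RM overlapped Sham. Ldha rose by 0.76 ± 0.14 in RM-HS (limma adjusted p = 2.0e-04), by 0.31 ± 0.11 in RM (limma adjusted p = 0.026) and by 0.67 ± 0.12 in HS (limma adjusted p = 1.2e-04). The RM call was lost without any 1 of RM 2, RM 3, RM 4, Sham 1 or Sham 6 (limma adjusted p = 0.0543 to 0.070), and with the name letter as a covariate (0.26, limma adjusted p = 0.24). All 3 calls held with Sham 1 and Sham 6 as the only controls, at 1.07, 0.62 and 0.98.

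Set directly against each other, the single injuries differed in most of the 10 genes. In RM against HS 7 genes were higher in RM and 1 was lower, where 23.8% of all rows passed, 11.1% higher and 12.6% lower, and the median change was 0.48 beside 0.02 over all rows. Pfkfb3 was higher in RM by 1.83 ± 0.18 (limma adjusted p = 1.4e-06), Hk2 by 2.49 ± 0.27 (limma adjusted p = 3.1e-06) and Gpi by 1.19 ± 0.08 (limma adjusted p = 1.0e-08). Eno1 was higher in RM by 0.56 ± 0.09 (limma adjusted p = 9.7e-05), Gapdh by 0.41 ± 0.09 (limma adjusted p = 0.0038), Pkm by 0.67 ± 0.21 (limma adjusted p = 0.022) and Aldoa by 0.25 ± 0.09 (limma adjusted p = 0.0458). Ldha was lower in RM by 0.37 on the log2 scale, at -0.37 ± 0.12 (limma adjusted p = 0.028). In 6 of the 7 higher genes no RM library overlapped an HS library, the exception being Pkm, and this also held for Ldha in the other direction, where 14.2% of all rows did not overlap, 6.04% higher and 8.21% lower. These comparisons use no Sham library beyond the shared estimate of spread. Ldha lost its call without RM 1, RM 5, HS 2, HS 3 or HS 4 (limma adjusted p = 0.0502 to 0.069), Pkm without RM 3, HS 1 or HS 5 (0.0507 to 0.071), and Aldoa without any 1 library other than RM-HS 1, RM-HS 2, RM 5, Sham 1, Sham 2 or Sham 6 (0.0520 to 0.10). Of the RM libraries 5 have names beginning with S and 1 with R, the HS libraries have 2 and 3, and RM-HS and Sham have R names only. With that letter as a covariate Pkm (limma adjusted p = 0.0528) and Aldoa (limma adjusted p = 0.081) no longer passed. What the letter stands for is not stated, and its part in the differences was not tested further.

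Between RM-HS and RM 1 member passed, Gpi, where 1.08% of all rows did, 0.395% higher and 0.689% lower. Gpi was lower in RM-HS, at -0.49 ± 0.09 (limma adjusted p = 0.026), and no RM-HS library overlapped an RM library. That call was lost without RM-HS 1, RM-HS 3 or RM 5 (limma adjusted p = 0.058 to 0.094), and with the name letter as a covariate (-0.47, limma adjusted p = 0.33). None was higher by limma or edgeR, 2 were at an unadjusted p under 0.05 by limma, and Ldha was by DESeq2 (DESeq2 adjusted p = 0.043, and 0.45 ± 0.14 with a limma adjusted p of 0.11). Gapdh, Eno1 and Ldha were higher in each RM-HS library than in any RM library, where 7.76% of all rows did not overlap, 4.32% higher and 3.44% lower. The others are not shown to be alike, since Hk2 differed by -0.53 ± 0.32 and the interval of Pfkfb3 ran from -0.27 to 0.62.

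In RM-HS against HS 7 genes were higher in RM-HS and none was lower, with none at an unadjusted p under 0.05 and none by edgeR or DESeq2, where 20.6% of all rows passed, 10% higher and 10.6% lower. In 6 of them, all but Pkm, no RM-HS library overlapped an HS library, beside 24.9% of all rows, 12.8% higher and 12.2% lower. Hk2 was higher by 1.96 ± 0.33 (limma adjusted p = 5.2e-04), Pfkfb3 by 2.00 ± 0.22 (limma adjusted p = 1.9e-05) and Eno1 by 0.74 ± 0.10 (limma adjusted p = 1.3e-04). Gpi was higher by 0.70 ± 0.10, Gapdh by 0.62 ± 0.11, Aldoa by 0.43 ± 0.11 and Pkm by 0.84 ± 0.25, with limma adjusted p from 1.3e-04 to 0.022. Ldha did not pass, at 0.09 ± 0.14 with a 95% interval of -0.21 to 0.38. Without RM-HS 2, the library that was highest of its group in 8 of the 10 genes, Aldoa (0.31, limma adjusted p = 0.058) and Pkm (0.67, limma adjusted p = 0.11) no longer passed. Pkm was also lost without RM-HS 1 or HS 5 (limma adjusted p = 0.0515 and 0.0528), and Hk1 passed without RM 5 or HS 3 (0.40 and 0.49, limma adjusted p = 0.044 and 0.027).

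Whether the combined injury was the sum of its parts was asked by taking the summed log2 changes of RM and HS away from the change in RM-HS. Of the members 1 departed from this sum, Hk1, where 31.7% of all rows did, 14.9% above it and 16.8% below. The departure of Hk1 was 0.79 ± 0.20 (limma adjusted p = 0.0052), since it fell in each single injury and its change in RM-HS was -0.07. It was lost with the name letter as a covariate (0.62, limma adjusted p = 0.19) and with Sham 1 and Sham 6 as the only controls (0.62, limma adjusted p = 0.076). With those 2 controls 19.8% of all rows passed, among them Ldha (-0.53, limma adjusted p = 0.0467). Pfkp had a departure of similar size with a larger SE, 0.78 ± 0.34 with a 95% interval of 0.07 to 1.49. It did not pass (limma adjusted p = 0.087), but did with upper quartile scaling (0.91, limma adjusted p = 0.0457). For Hk2 the departure was -0.51 with an interval of -1.38 to 0.36, and for Pfkfb3 it was -0.56 with an interval of -1.14 to 0.03.

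Paired with the kidney's other isozymes, the members shifted in both directions. Ratios of normalized reads were taken within each library, so the library's own scale cancels, but they are not per length and their level does not say which isozyme was more abundant. Over the 5 pairs described here and 4 comparisons 4 of 20 ratios passed (exact two-sided permutation test, Benjamini-Hochberg adjusted p under 0.05 over the 24 ratios tested). The log2 ratio of Hk2 to Hk1 was -2.43, -2.53 and -1.58 in the RM-HS libraries. It averaged -1.33 ± 0.32 in RM, -3.74 ± 0.45 in HS and -4.18 ± 0.25 in Sham (SD). It was 2.85 higher in RM than in Sham (exact permutation p = 0.0022, adjusted p = 0.017) and 2.41 higher in RM than in HS (exact permutation p = 0.0043, adjusted p = 0.017), with no overlap. In RM-HS it was 2.00 higher than in Sham without overlap, and the exact permutation p of 0.024 was the smallest that 3 against 6 libraries allow (adjusted p = 0.069).

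The ratio of Pkm to Pklr, an isozyme best known from liver and red cells, was lower in RM. Pklr was higher in RM than in Sham, while the change of Pkm was 0.39 ± 0.20 and did not pass (limma adjusted p = 0.099). The log2 ratio of Pkm to Pklr averaged -1.41 ± 0.24 in RM-HS, -2.38 ± 0.42 in RM, -0.89 ± 0.74 in HS and -0.84 ± 0.49 in Sham (SD), and differed by -1.53 between RM and Sham and by -1.49 between RM and HS (adjusted p = 0.017 by the exact permutation test for each). The ratio of Ldha to Ldhb differed by 0.88 between HS and Sham (exact permutation p = 0.026, adjusted p = 0.069), and the ratios of Pfkp to Pfkl and to Pfkm passed in no comparison. Without RM 3 the ratios of Ldha to Ldhb and of Pfkp to Pfkm passed between RM and HS (-0.74 and -0.97, adjusted p = 0.027 and 0.0476 by the exact permutation test). Summed over 6 erythroid markers, normalized reads had a median of 1062900 in RM-HS, 780440 in RM, 158030 in HS and 360860 in Sham. Over 8 early proximal tubule markers the medians were 452570, 392390, 343710 and 242050 in the same order. The part of either in the Pkm to Pklr ratio was not tested. With Sham 1 and Sham 6 as the only controls the differences between RM and Sham were 2.82 for Hk2 to Hk1 and -1.70 for Pkm to Pklr. A test of 6 against 2 libraries could pass for neither, since its smallest exact permutation p is 0.071.

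**Figure D3:**
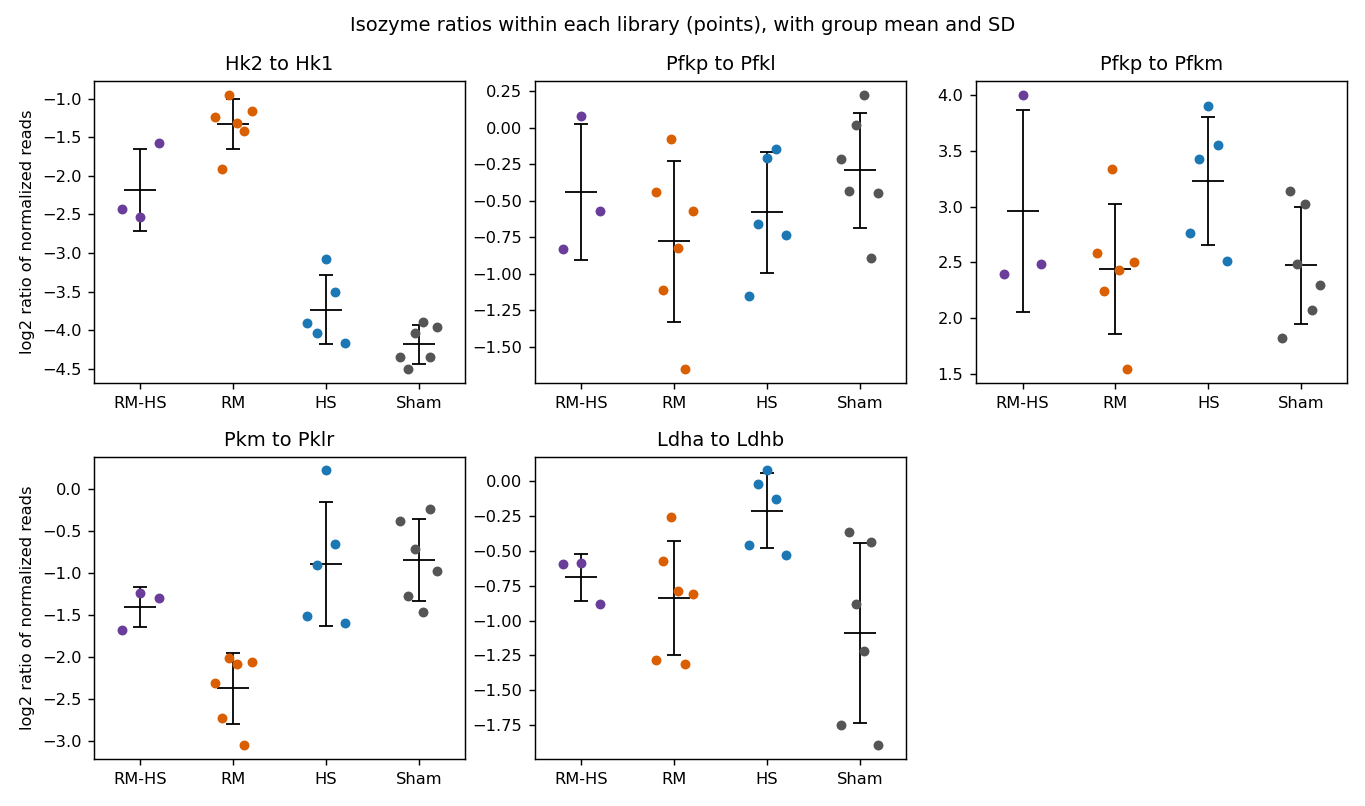
Log2 ratio of normalized reads of 2 isozymes (vertical axis) within each library, in the order RM-HS, RM, HS and Sham, with points for libraries and lines for the group mean and SD. RM lies above HS and Sham for Hk2 to Hk1, and below HS and Sham for Pkm to Pklr.

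The genes whose pattern over the 20 libraries lay nearest to each member were found among 11165 genes by the root mean square difference of log2(value + 1), centred per gene. Gapdh and Eno1 were each other's nearest gene at 0.12, against an SD over libraries of 0.39 for either. Gpi lay nearest to Pdhb, a subunit of pyruvate dehydrogenase, at 0.11, with an SD of 0.48 for Gpi. Pdhb changed by 0.52 in RM-HS, 0.92 in RM and -0.24 in HS against Sham, beside 0.41, 0.90 and -0.29 for Gpi. Pfkfb3 lay nearest to Ppp1r15a, a stress-response regulator of translation factor phosphorylation (0.33), then to Zfp36, which destabilizes mRNAs (0.33), and to Insig1 (0.33). The nearest genes to Hk2 were Slc7a5, an amino acid transporter, at 0.44, Slc16a5 at 0.45 and Gadd45a at 0.47. The SD was 1.24 for Hk2 and 1.20 for Pfkfb3. Ldha lay nearest to the epithelial adhesion gene Epcam (0.13), Aldoa to Ppia, a common reference gene (0.09), Pkm to Sh3bp2 (0.24), and Hk1 to Gpr108 (0.17). Pfkp lay nearest to St14, a membrane protease (0.18), with Hk1 the third in order (0.24). The SD was 0.35 for Ldha, 0.19 for Aldoa, 0.45 for Pkm, 0.29 for Hk1 and 0.41 for Pfkp. The differences are not scaled by these SDs, so they do not rank the members by closeness.

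Of 22 tested genes for other isozymes and steps 7 were higher and 1 lower in RM-HS against Sham. In RM they were 6 and 4, in HS 4 and 4, and the other 14, 12 and 14 did not pass. Over all tested rows 42.3% passed in RM-HS, 53% in RM and 46.4% in HS, so these counts did not stand above the background. The same shares stand beside the counts of the lists that follow. Pklr, a pyruvate kinase best known from liver and red cells, was higher by 1.13 ± 0.29 in RM-HS (limma adjusted p = 0.0039) and 1.93 ± 0.24 in RM (limma adjusted p = 1.5e-06). In HS its change was -0.23 ± 0.25 (limma adjusted p = 0.47). Pgam1, which moves the phosphate of phosphoglycerate, was higher by 0.70 ± 0.09 in RM-HS, 0.63 ± 0.07 in RM and 0.32 ± 0.07 in HS, with limma adjusted p from 5.7e-07 to 0.0016. Pfkfb2, another fructose 2,6-bisphosphate enzyme, was higher by 0.76 ± 0.19, 0.89 ± 0.15 and 1.11 ± 0.16 in RM-HS, RM and HS, with limma adjusted p from 2.0e-05 to 0.003. Pfkm fell by 1.08 ± 0.23 in HS (limma adjusted p = 6.2e-04), and its change was -0.36 ± 0.26 in RM-HS and -0.29 ± 0.21 in RM, neither of which passed. With Sham 1 and Sham 6 as the only controls the counts were 7 and 1 in RM-HS, 6 and 2 in RM, and 2 and 4 in HS. Of all rows 27.2%, 32.9% and 25.7% passed with those 2 controls, shares that apply to the later lists too.

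Of 15 genes for glucose and lactate transport 9 were higher and 2 lower in RM-HS against Sham, 9 and 2 in RM, and 6 and 3 in HS, and these counts were 8 and 2, 8 and 2, and 4 and 3 with Sham 1 and Sham 6 as the only controls. Slc2a5, the fructose transporter, was higher in RM-HS by 1.32 ± 0.24 and in RM by 3.23 ± 0.19, and its change in HS was -1.09 ± 0.20 (limma adjusted p = 1.9e-04, 2.4e-10 and 2.2e-04). Slc16a1, a lactate and pyruvate transporter, was higher by 3.44 ± 0.47 in RM-HS, 3.52 ± 0.38 in RM and 2.67 ± 0.40 in HS, and by 2.17, 2.25 and 1.40 with Sham 1 and Sham 6 as the only controls, passing in each. Slc2a2, the basolateral glucose transporter of the proximal tubule, was higher by 2.78 ± 0.43 in RM-HS, 3.36 ± 0.35 in RM and 3.04 ± 0.36 in HS, and by 1.58, 2.16 and 1.84 with those 2 controls, passing in each.

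Past pyruvate, Pdk4, the kinase that switches pyruvate dehydrogenase off, was higher by 1.34 ± 0.28 in RM-HS, 1.81 ± 0.23 in RM and 2.39 ± 0.24 in HS, with limma adjusted p of 8.7e-04, 2.5e-06 and 5.4e-07. Of 12 genes for pyruvate entry into mitochondria 3 were higher and 2 lower in RM-HS, 5 and 1 in RM, and 3 and 4 in HS, and with Sham 1 and Sham 6 as the only controls 3 and none, 3 and none, and 2 and 1. Of 8 gluconeogenesis genes 5 were higher and 1 lower in RM-HS, 5 and 2 in RM, and 3 and 2 in HS, but with Sham 1 and Sham 6 as the only controls 1 was higher and none lower in RM-HS, 2 and none in RM, and 1 and 2 in HS. G6pc1, the enzyme that releases glucose, was higher by 1.20 ± 0.38 in RM-HS, 2.49 ± 0.31 in RM and 2.74 ± 0.32 in HS, and by 0.49, 1.78 and 2.03 with those 2 controls, where the RM-HS change did not pass (limma adjusted p = 0.34). Of 7 pentose phosphate genes 5 were higher and none lower in RM-HS, 5 and 1 in RM, and 3 and 1 in HS, and with those 2 controls 4 and none, 5 and none, and 1 and none. Among them Tkt, transketolase, was higher by 1.11 ± 0.21 in RM-HS, 1.49 ± 0.17 in RM and 0.60 ± 0.18 in HS, with limma adjusted p of 2.9e-04, 6.3e-07 and 0.0088.

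**Figure D4:**
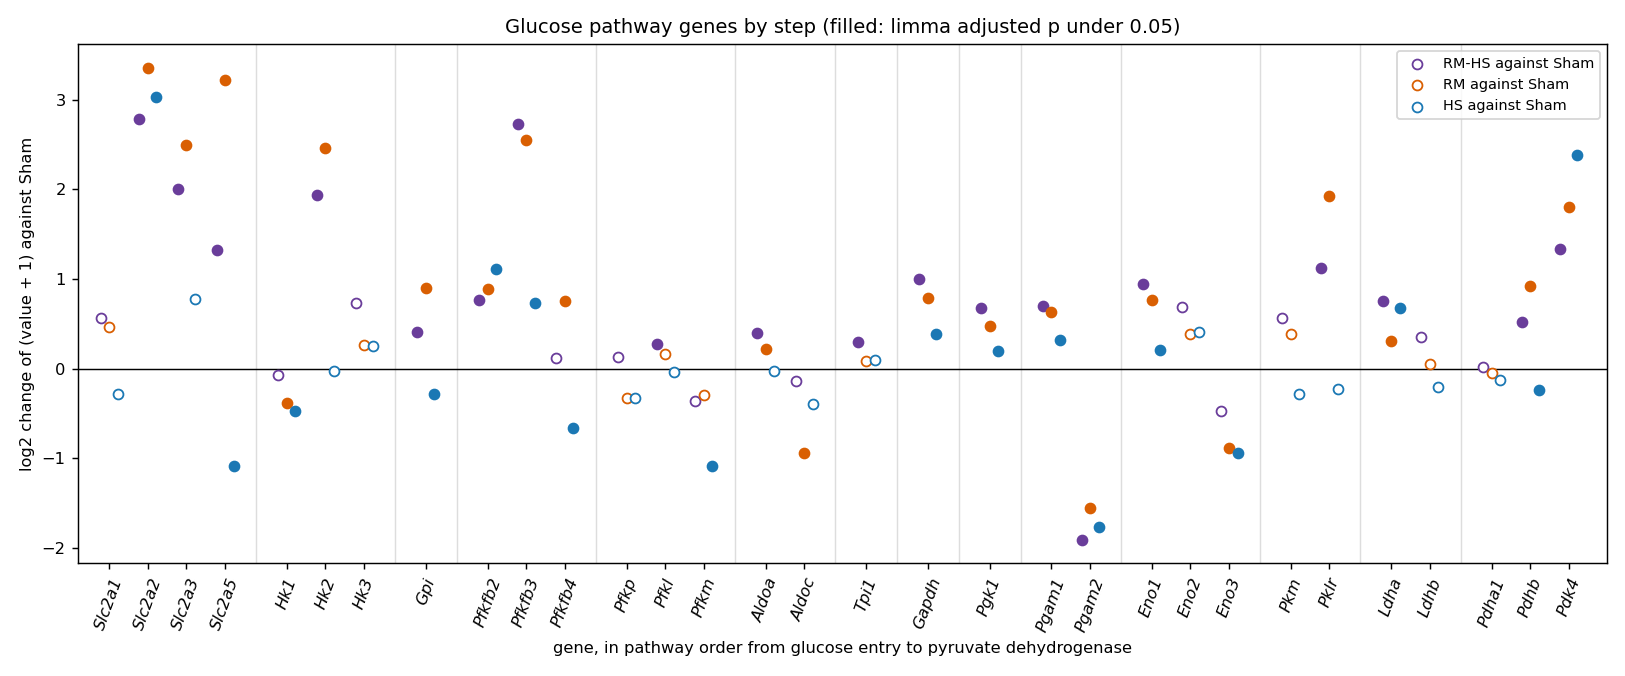
Log2 change of (value + 1) against Sham (vertical axis) of genes from glucose entry to pyruvate dehydrogenase in pathway order, for RM-HS, RM and HS, with filled points for a limma adjusted p under 0.05. Hk2, Gpi, Pfkfb3 and Pklr lie higher in RM than in HS, and Pdk4 and Ldha lie higher in HS than in RM.

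Targets of hypoxia-inducible factors outside glycolysis included genes that rose and genes that fell. Of 13 tested genes 10 were higher and 2 lower in RM-HS, 10 and 2 in RM, and 9 and 2 in HS, and 9 and 1, 6 and 1, and 7 and 1 with Sham 1 and Sham 6 as the only controls. Ndrg1, a stress-response gene, was higher by 2.40 ± 0.21 in RM-HS, 2.49 ± 0.17 in RM and 2.01 ± 0.18 in HS, with limma adjusted p of 1.5e-07 or less. P4ha1, a collagen prolyl hydroxylase subunit, was higher by 1.56 ± 0.28, 1.60 ± 0.23 and 1.78 ± 0.24 in RM-HS, RM and HS, and Bnip3, a mitophagy receptor, by 1.05 ± 0.17, 0.63 ± 0.14 and 1.05 ± 0.15. The lower genes were Egln3, a prolyl hydroxylase that marks the factors for breakdown, and Mxi1, a partner of Max. Egln3 fell by 1.36 ± 0.34 in RM-HS, 1.34 ± 0.28 in RM and 1.14 ± 0.29 in HS, with limma adjusted p from 4.7e-04 to 0.0034, and passed in none of the 3 with Sham 1 and Sham 6 as the only controls (limma adjusted p = 0.052 to 0.14). Mxi1 fell by 0.54 ± 0.14, 0.69 ± 0.11 and 0.50 ± 0.12 in RM-HS, RM and HS, and passed in each with those 2 controls. Adm, adrenomedullin, was higher by 3.07 ± 0.25 in RM-HS, 3.22 ± 0.20 in RM and 0.94 ± 0.21 in HS (limma adjusted p = 3.0e-08, 3.8e-10 and 0.0012).

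Marker sums of several cell types differed between groups, and some differed among the controls. Those of distal convoluted tubule, endothelium, macrophages and fibroblasts overlapped Sham in each injury group, although some of their genes passed against Sham. Summed over 8 early proximal tubule markers the normalized reads were 323410 to 498860 in RM-HS, 323800 to 427690 in RM, 296600 to 386810 in HS, 344660 to 355270 in Sham 1 and Sham 6 and 156680 to 260060 in the other Sham libraries. Over 6 thick ascending limb markers they were 155150 to 188000 in RM-HS, 111370 to 236130 in RM, 84901 to 149680 in HS and 193710 to 350060 in Sham. Over 8 collecting duct markers they were 14132 to 26238 in RM-HS, 17400 to 45393 in RM and 16154 to 25803 in HS. The controls differed here too, at 38500 to 52665 in Sham 1 and Sham 6 and 66745 to 94119 in the other Sham libraries. With Sham 1 and Sham 6 as the only controls 2 of the 8 were lower in RM-HS, 4 in RM and 2 in HS. More of them were lower with all 6 controls. Of the 6 thick ascending limb markers 5 were lower in RM-HS, 6 in RM and 6 in HS with those 2 controls. Neutrophil markers, of which 6 of 7 were higher in RM-HS and in RM, and 2 higher and 1 lower in HS, summed to 8464 to 14278 in RM-HS, 6131 to 22283 in RM, 2845 to 9043 in HS and 2502 to 6793 in Sham. Erythroid markers summed to 379530 to 1089000 in RM-HS, 371660 to 1008100 in RM, 87072 to 474110 in HS and 227280 to 1334300 in Sham. Over 6 podocyte markers the sums were 8799 to 10329 in RM-HS, 9337 to 12212 in RM, 8500 to 10705 in HS, 9057 to 9245 in Sham 1 and Sham 6 and 2128 to 5785 in the other Sham libraries. The part of these shifts in the changes of the glycolysis genes was not tested. For skeletal muscle, a tissue rich in glycolytic enzymes, the sums of its 8 markers overlapped between groups. They were 176 to 269 in RM-HS, 57.7 to 233 in RM, 179 to 235 in HS and 160 to 519 in Sham. Myoglobin (Mb) was at 0 in every library but RM-HS 1 (4.36). Of the tested muscle markers Acta1 alone passed in HS against Sham, higher by 2.83 ± 0.71 (limma adjusted p = 0.0027). Acta1 was lower in RM than in HS, at -2.94 ± 0.71 (limma adjusted p = 0.0049). It had 2.02 to 23.9 normalized reads in RM, 28.9 to 158.7 in HS and 1.52 to 62.5 in Sham.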

How the data were processed

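Total RNA of frozen rat kidney was made into stranded mRNA libraries and read from both ends, per the labels' protocols. The submitters' processing notes name FastQC 0.11.2, Picard 1.119, SAMtools 1.0, the aligner STAR, the counter featureCounts of Subread 1.5.0, DESeq2 and the build rn6. The deposited signal values are read counts per gene that the authors normalized with DESeq2. How alignment and counting were set, strand included, is not stated in the labels or files. All values (100%) lay within 0.1 read of a whole number once divided by the worth of 1 read in their library, so whole reads were recovered, on which edgeR 4.0.16 and DESeq2 1.42.0 were run as alternatives. On them edgeR called 6414 genes in RM-HS, 8122 in RM and 7163 in HS against Sham.

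Libraries were grouped by their disease label. Rows that reached 10 in 3 or more libraries entered limma 3.58.1 (R 4.3.3), its trend option on, as log2(value + 1) in 1 fit of 4 group means over 20 libraries, with Benjamini-Hochberg adjustment over all 15954 rows and a threshold of 0.05. A pseudocount of 1 understates the change of low genes. There were 7 contrasts. Isozyme ratios were tested in SciPy 1.17.1 by exact permutation. The fits were also run on simulated data in which far fewer genes changed than passed here. That run does not speak for changes as wide as those in these data. Coordinates are those of the file, and promoters and their coordinates are those of RefSeq on GRCr8.

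All members were named, with up to 5 genes of each other list and comparison with Sham by smallest adjusted p, of which some are given, and the 3 genes with a mean of at least 50 nearest to each member. Outside that rule fall genes of other lists shown only in the figure of pathway steps. So do changes given beside a named gene in a further comparison. Mb, Acta1, Slc5a2 and Egln3 fall outside it too, as they were chosen after their values were seen. The members and all lists were chosen with earlier results of these data known. Hkdc1, Ldhd and Pdhx were not analysed here, and Pgk2 and Ca9 did not pass the filter. A few genes of the lists and 1 of the 6 isozyme pairs are not reported here. Alternatives were pseudocounts of 0.5 and 8, no filter, a filter of 50, TMM or upper quartile scaling, fitting just the groups compared, the letter that starts a library's name as a covariate, libraries named R alone, edgeR, DESeq2, leaving out each library, and Sham 1 and Sham 6 as the only controls.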

Additional observations from a re-analysis of the deposited data

Results flagged for a closer look

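Gapdh in Sham 6 stood apart from the other controls, at 70106 normalized reads against 49762 to 57179 in the other 5 Sham libraries. It was the only such value among 30 combinations of member and group with at least 5 libraries. Chance gives such a value in about 1 in 20 combinations, so 1 among 30 is no more than chance gives. The departure of Hk1 from the sum of the single injuries was 0.79 ± 0.20 (limma adjusted p = 0.0052). In that fit its change in RM differed with and without HS. The departure did not pass with the name letter as a covariate (0.62, limma adjusted p = 0.19). Nor did it with Sham 1 and Sham 6 as the only controls (0.62, limma adjusted p = 0.076).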

How the results depend on the processing

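No paired analysis was possible because the labels carry no replicate numbers, and those used here follow the order in which samples are listed.

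Pseudocounts, filters, TMM scaling and edgeR kept the number of members that passed within 1.5 times in every comparison. Of 8 members in RM against Sham 5 passed with the name letter as a covariate (without Hk1, Aldoa and Ldha) and 3 with libraries named R alone (without Gapdh and Eno1 as well), where RM has 1 library that is assumed to vary like the others, while 4551 and 766 genes passed against 8455. With Sham 1 and Sham 6 as the only controls 5250 genes passed in RM, 4347 (of 6749) in RM-HS and 4105 (of 7410) in HS, with 3 of 6 members in HS, where the change of Eno1 reversed to -0.0209. In RM-HS against RM 0 members (Gpi lost) passed with only the groups compared, the name letter or R names alone (2, 2 and 1 at an unadjusted p under 0.05 by limma), and 2 passed with DESeq2 (Ldha added). The genes there were 42, 0, 0 and 505 against 173, and the counts of 0 had 1183 and 1101 at an unadjusted p under 0.05. With R names alone 1203 genes (of 3287) passed in RM-HS against HS, and 195 (of 3791) with 3 of 8 members in RM against HS. For the departure from additivity, 2 members passed with upper quartile scaling (Pfkp added), 0 with the name letter and 0 with R names alone (1 and 0 unadjusted), and genes were 617 with the letter, 0 with R names alone (2079 unadjusted) and 3151 with Sham 1 and Sham 6, against 5054. Of 6 isozyme ratios 0 passed with R names alone (2 of 24 at an unadjusted exact permutation p under 0.05) and 3 with Sham 1 and Sham 6 as the only controls. All 6 involve RM, which has 1 library named R, so the smallest exact p is 0.29 against Sham and 0.50 against HS, and with 2 controls it is 0.071 for RM against Sham: those losses come from the number of libraries.

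Upper quartile scaling shifted the median of all genes by -0.13 in RM-HS, -0.14 in RM and -0.12 in HS against Sham and by 0.13 for additivity. It split the calls into 2586 higher and 4413 lower in RM-HS (3395 and 3354 before), 3249 and 5529 in RM (4178 and 4277), 2937 and 4695 in HS (3712 and 3698) and 3154 and 2080 for additivity (2376 and 2678). Under it Aldoa and Ldha in RM (0.07 and 0.16) and Eno1 in HS (0.09) did not pass, and no member that passed changed direction. The causes were not tested.

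Leaving out 1 library gave 6 to 9 members in RM against Sham, 5 to 6 in HS, 7 to 8 in RM-HS, 0 to 1 in RM-HS against RM, 5 to 8 in RM-HS against HS, 6 to 8 in RM against HS, 1 to 1 for additivity and 6 to 8 isozyme ratios. The genes were 7828 to 8537, 6647 to 7509, 5051 to 6862, 21 to 480, 2015 to 3547, 3026 to 4016 and 3989 to 5518 in the same order of comparisons. A fit of only the groups compared has no separate value for additivity, which uses all groups.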
